A study of Homo sapiens with 20 samples.

Results

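The first hour of transcription block was examined in wild type (WT) pancreatic progenitors (PPs), the stage at which cells of the pancreatic epithelium express *PDX1*, *NKX6-1* and *SOX9*. The members were chosen by their labels: 2 WT PP libraries collected after 1 h in actinomycin D (Act D) at 1 μg/ml and 2 WT PP libraries collected at 0 h, the treatment control, 4 of the 20 libraries of the series. Of the 60623 genes listed in each file, the 10645 with a mean of at least 5 CPM (read counts scaled to the same library total) over these 4 libraries were tested. All PPs were derived from MEL1, a human embryonic stem cell line that per the study's methods carries an insulin reporter (INS GFP/W), by stepwise differentiation in media that in the last days held vitamin C, EGF and LDN-193189, an inhibitor of BMP receptors. Only for the comparison of genotypes, the 4 libraries of *ALKBH5* knockout (A5-KO) PPs at 0 h and 1 h were added. A5-KO cells came from a knockout line made in the same MEL1 cells and edited with CRISPR-Cpf1 in the first exon of *ALKBH5*, the enzyme that removes the m6A mark from RNA, and received the same media and Act D. The study counts such libraries as biological replicates, but the labels name no cultures or days, so p-values measure the spread between these libraries, which may in part be technical.

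Act D intercalates into DNA and stops RNA polymerases. The mRNAs made before the block remain and are degraded at their own rates, so that within an hour mRNAs with short lives lose share of the RNA pool and long-lived mRNAs gain it. A classic signal for fast decay in mammalian mRNAs is the AU-rich element, overlapping copies of the pentamer AUUUA in the 3′ untranslated region (3′ UTR), which binds proteins such as ZFP36 that recruit the deadenylase. Because CPM is relative to the total reads of a library and the added spike-in RNAs were removed before deposit, a fall here is a loss of share and not a measured loss of molecules.

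The 4 libraries held between 30740452 and 34972686 reads. In WT, *ALKBH5* measured 149 and 172 CPM before and 133 and 125 CPM after the hour, against 19.1 and 18.8 CPM in untreated A5-KO. Of 8 progenitor markers, 7 passed the expression limit and only *PTF1A* did not, while none of 6 endocrine markers passed it (summed level 5.34 and 4.18 CPM at 0 h, with 2 of them at 0). The summed hepatic markers were at 1015 and 1064 CPM at 0 h and the intestinal markers at 712 and 704 CPM. In such bulk libraries fewer cells of a type and less RNA per cell cannot be told apart. The median absolute log2 difference between replicates was 0.10 at 0 h and 0.086 at 1 h.

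In the first hour 1773 of the 10645 genes fell (16.7% of those tested) and 21 rose (0.197%), by limma on log2(CPM + 1) with a Benjamini-Hochberg adjusted *p* under 0.05 and a change over 1.5-fold. The median change of all tested genes was -0.11 on the log2 scale, and the 5th and 95th percentiles were -1.21 and 0.26. Of the genes that fell, 878 were under 50% of their 0 h level and 150 under 25%. Without a test, both 1 h libraries lay below both 0 h libraries for 51.0% of genes and above them for 22.6%. At an unadjusted *p* under 0.05 and no fold limit, 4044 of the 10217 tested protein-coding genes were lower and 1136 higher. Counts of a class at an unadjusted *p* are to be read beside these, and counts of a class that fell beside the 16.7%. The direction of the small changes depended on the scaling: of the called genes 98.8% were lower on CPM, 95.4% after median-of-ratios scaling, which moved the median of all genes up by 0.12, and 73.2% after quantile normalization, which moved it up by 0.21. Median-of-ratios scaling left 1358 genes lower (12.8%) and 66 higher (0.62%), and quantile normalization 1014 lower (9.53%) and 371 higher (3.49%).

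The largest fall was that of *SLC30A1*. This gene, which encodes the zinc exporter of the plasma membrane (chr1:211571568-211579161, GRCh38, minus strand), was at 225 and 161 CPM before the block and fell to 7.69 and 11.2 CPM. That was a log2 change of -4.22 ± 0.15 (SE, 2 libraries a group; limma adjusted *p* = 1.1e-10), and the groups were far apart. *SPRY1*, an inhibitor of receptor tyrosine kinase signalling, went from 159 and 118 CPM to 10.8 and 12.46 CPM (log2 change -3.45 ± 0.12). *MYC*, the growth regulator, went from 289 and 184 CPM to 21.8 and 24.2 CPM (-3.27 ± 0.14). In both genes both 1 h libraries lay far below both 0 h libraries, which were themselves apart, with replicate 1 the higher.

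The 1-exon gene *RASSF10*, a member of the Ras association family, fell from 24.1 and 16.8 CPM to 1.03 and 0.586 CPM. *SOCS1*, the feedback inhibitor of cytokine signalling, fell from 37.7 and 28.3 CPM to 2.52 and 2.60 CPM, and the pseudokinase *TRIB1*, an adaptor for ubiquitination, from 30.5 and 23.5 CPM to 1.40 and 2.99 CPM. In each of these genes the 1 h libraries lay far below both 0 h libraries. *AEN*, a p53-induced nuclease, went from 134 and 102 CPM to 11.8 and 12.9 CPM. *EPC1*, a subunit of the NuA4 acetyltransferase complex, went from 42.5 and 36.2 CPM to 3.57 and 3.58 CPM, and the single-exon gene of the POU factor *POU3F2* from 108 and 83.1 CPM to 9.55 and 10.6 CPM. *C15orf39* went from 116 and 77.5 CPM to 10.0 and 12.2 CPM. These 10 were the protein-coding genes of at least 20 CPM with the largest falls, and all of them kept their call under every alternative setting tried.

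**Figure D1:**
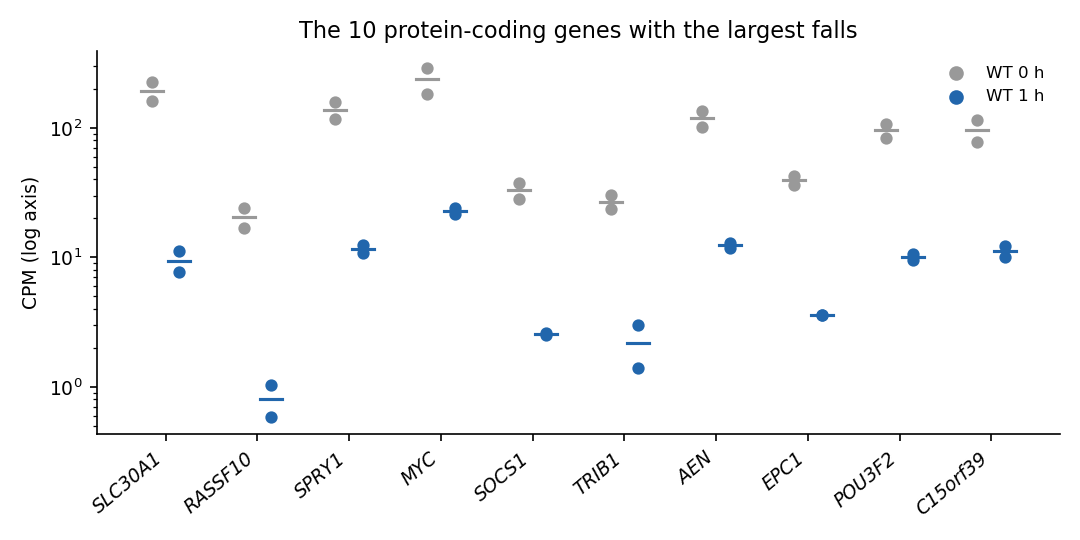
CPM on a log axis of the 10 protein-coding genes of at least 20 CPM with the largest falls, with a point for each WT library at 0 h (grey) and 1 h (blue) and a bar at the mean. In every gene both 1 h points lie below both 0 h points, with *SLC30A1* at 225 and 161 CPM against 7.69 and 11.2 CPM.

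The 3′ UTRs of 6 of these 10 genes hold the 7-base motif TATTTAT, the AU-rich pentamer with a flanking base on each side, searched on the transcribed strand: *POU3F2* holds 4 copies, *SPRY1* and *AEN* 3 each, *SLC30A1* 2, and *EPC1* and *MYC* 1 each. *RASSF10*, *SOCS1*, *TRIB1* and *C15orf39* hold none. The motif stood in the 3′ UTRs of 37.7% of the tested protein-coding genes. Stretches of 30 bases around 1 copy are shown for 5 genes to make the motif visible in its setting. They are GENCODE v44 transcripts on GRCh38, written 5′ to 3′ in the transcript's direction, with ATTTA in capitals. They lie at chr1:211573140-211573169 (*SLC30A1*, minus strand), chr4:123403337-123403366 (*SPRY1*, plus), chr15:88631183-88631212 (*AEN*, plus), chr10:32268637-32268666 (*EPC1*, minus) and chr6:98836635-98836664 (*POU3F2*, plus).
SLC30A1: ttagcagagaattATTTAtttctttacaat
SPRY1: aactcaagttgatATTTAtagctgatcaat
AEN: gcctgacctttATTTATTTAttaacagcag
EPC1: tgctgttttatctATTTAttgtgccgtgtt
POU3F2: tgctgctgtgtttATTTAttgtggattccc
In *AEN* the stretch holds 2 overlapping copies of the pentamer and in the others 1. A match describes these letters and does not show that a protein binds there.

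The immediate early genes, the transcription factors and growth arrest genes that cells switch on within minutes of a stimulus, fell almost as a whole. Their list was drawn up for immediate early genes and AU-rich element transcription factors together. Of 34 tested (45 listed), 30 fell and 1 rose, and their median log2 change was -1.33 against -0.11 for all genes. Among the AP-1 family 7 of 8 fell, including *FOSL2* (43.3 and 36.7 CPM at 0 h, 5.98 and 5.27 CPM at 1 h) and *JUN* (53.9 and 47.7 CPM, then 6.35 and 8.75 CPM). *JUNB* was the AP-1 gene that was not called, at 9.33 and 8.49 CPM and then 6.23 and 6.28 CPM. *EGR1*, the zinc finger factor induced by serum and stress, went from 28.4 and 21.7 CPM to 3.69 and 2.73 CPM (log2 change -2.63), and *NR4A1*, the other tested member of its group, also fell. All 8 tested KLF genes fell, from *KLF4* (-2.29) to *KLF7* (-0.84). Of the MYC family and its partners *MYC*, *MYCN* and *MXD1* fell, while *MXI1* (38.9 and 38.5 CPM, then 38.9 and 40.1 CPM) and *MYCL* (7.98 and 7.37 CPM, then 9.92 and 10.3 CPM) were not called. Of 11 immediate early response and growth arrest genes 10 fell, among them *IER2*, *BTG1* and *MCL1*, the survival factor of the BCL2 family, at 289 and 228 CPM and then 68.6 and 80.8 CPM. The 1 that went the other way was *GADD45B*, a stress sensor.

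The class summed to 0.258% and 0.202% of all reads at 0 h and to 0.0697% and 0.0784% at 1 h, a ratio of 0.322. Summed shares were compared by exact permutation of 2 against 2 libraries, where the smallest two-sided *p* is 0.33, so they are given as values per library. Of 10 tested genes for proteins that bind AU-rich elements 3 fell (median -0.21). The ZFP36 family, which promotes decay, fell in all 3 members. *ZFP36L2* went from 287 and 232 CPM to 55.8 and 62.9 CPM, *ZFP36L1* from 141 and 133 CPM to 64.9 and 66.9 CPM, and *ZFP36* from 13.4 and 10.4 CPM to 6.63 and 6.54 CPM. The stabilising *ELAVL1* (HuR) stayed at 131 and 130 CPM and then 120 and 132 CPM, and neither it nor the other 6 members was called. A gene annotated on the opposite strand, at 0.129 CPM, shares 22.4% of the exon bases of *ZFP36L2*.

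Feedback inhibitors of growth factor signalling fell in most members. Of 15 tested ERK feedback genes 12 fell (median log2 change -1.34), including all 6 DUSP genes, which encode phosphatases that inactivate MAP kinases, and all 5 Sprouty and Spred genes. *SPRY2* went from 387 and 272 CPM to 51.2 and 63.5 CPM. *DUSP6* went from 242 and 176 CPM to 56.7 and 62.9 CPM and *DUSP5* from 967 and 656 CPM to 229 and 280 CPM. In these genes the 0 h libraries were themselves apart, with replicate 1 the higher. A gene on the opposite strand, at 1.199 CPM, shares 28.6% of the exon bases of *DUSP6*. The PEA3 factors *ETV4* and *ETV5*, transcriptional targets of the same pathway, were not called: *ETV4* was at 147 and 147 CPM and then 145 and 147 CPM, and *ETV5* at 69.4 and 60.4 CPM and then 49.8 and 47.3 CPM.

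Of 11 tested genes of the BMP and TGF-beta response 10 fell (median -1.28; 7 fell after median-of-ratios or quantile scaling). All 4 ID genes, whose products block basic helix-loop-helix factors, fell. *ID4* went from 43.9 and 33.9 CPM to 8.24 and 8.49 CPM and *ID3* from 181 and 158 CPM to 81.0 and 87.3 CPM. *SMAD7*, the inhibitory SMAD, went from 11.5 and 11.1 CPM to 1.201 and 1.79 CPM, and *BAMBI* and *TGIF1*, further inhibitors of the pathway, fell by 1.93 and 1.87 on the log2 scale. Of 11 tested YAP and TEAD targets 7 fell (median -1.07), with *AMOTL2*, a scaffold that restrains YAP, from 61.2 and 45.3 CPM to 9.98 and 12.1 CPM, and *CCN1* and *CCN2*, secreted matrix proteins, by 1.39 and 1.33.

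Of 11 tested Notch genes 4 fell (36.4%, beside 16.7% of all genes), and the median of the list was 0.01. *HES1*, the target repressor that holds back endocrine differentiation, fell from 55.8 and 46.2 CPM to 5.69 and 9.21 CPM (log2 change -2.65), and *HEY1*, *NRARP* and the ligand *JAG1* fell too. With median-of-ratios or quantile scaling, edgeR or DESeq2, 2 fell in place of 4. The receptors were not called: *NOTCH2* measured 405 and 400 CPM before and 428 and 440 CPM after the hour, and *NOTCH1* and *NOTCH3* had log2 changes of 0.03 and 0.26. Of 4 tested Wnt genes *ZNRF3* and *TCF7L2* fell (50.0%, beside 16.7% of all genes). *CCND1* (cyclin D1), the highest of the list, stood at 1519 and 1523 CPM and then at 1352 and 1361 CPM. *LTO1* on the opposite strand shares 10.4% of the exon bases of *CCND1*. Of 10 tested NF-kB genes 2 fell (20.0%, near the 16.7% of all genes; median -0.38): *NFKBIZ* went from 15.0 and 14.7 CPM to 3.92 and 4.07 CPM and *NFKBIA* from 21.2 and 17.1 CPM to 4.55 and 6.44 CPM.

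Transcription factors of the progenitor list, which holds factors of pancreatic epithelium, foregut endoderm and endocrine lineage, were among the mRNAs that fell. Of 23 tested (36 listed) 15 fell (65.2%, beside 16.7% of all genes), and the median log2 change was -0.99. Of the endocrine lineage factors 2 were tested and 0 called. In all 23 both 1 h libraries lay below both 0 h libraries, beside 51.0% of all tested genes. Among the factors of the pancreatic epithelium 9 of 11 fell. *PDX1*, required for pancreas formation, went from 199.9 and 156 CPM to 43.7 and 50.5 CPM (log2 change -1.89 ± 0.10, limma adjusted *p* = 1.7e-09). *SOX9*, the factor of the progenitor pool, went from 322 and 237 CPM to 59.5 and 71.2 CPM (-2.07 ± 0.11), and *NKX6-1*, a factor of the progenitor and beta cell program, from 367 and 289 CPM to 96.2 and 112 CPM (-1.64 ± 0.09). *MNX1*, a homeobox factor of the early pancreatic bud, went from 131 and 116 CPM to 61.4 and 66.3 CPM (-0.94 ± 0.07). *PROX1* and *HHEX* fell by 1.35 and 1.62, and *RBPJ* and *ONECUT1*, at -0.35 and -0.36, were the 2 epithelial factors not called.

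Among the foregut endoderm factors 6 of 10 fell. *FOXA2*, a pioneer factor of endoderm, went from 98.2 and 75.7 CPM to 16.7 and 15.97 CPM (-2.33 ± 0.11) and *KLF5*, an epithelial zinc finger factor, from 500.1 and 368 CPM to 93.2 and 109 CPM (-2.08 ± 0.10). *FOXA1*, *FOXA3*, *GATA4* and *GATA6* were the others that fell, by 1.47, 1.85, 0.86 and 1.77. The hepatocyte nuclear factors *HNF4A* (103 and 89.2 CPM, then 75.4 and 86.6 CPM) and *HNF4G* and the intestinal factor *CDX2* (149 and 126 CPM, then 106 and 122 CPM) were not called. The summed progenitor markers were at 1111 and 859 CPM at 0 h and 276 and 319 CPM at 1 h. Over the same hour the hepatic markers stood at 1098 and 1089 CPM, the intestinal markers at 721 and 750 CPM and the pluripotency markers at 123 and 140 CPM, against 127 and 124 CPM at 0 h. The part of cell composition in these falls was not tested.

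**Figure D2:**
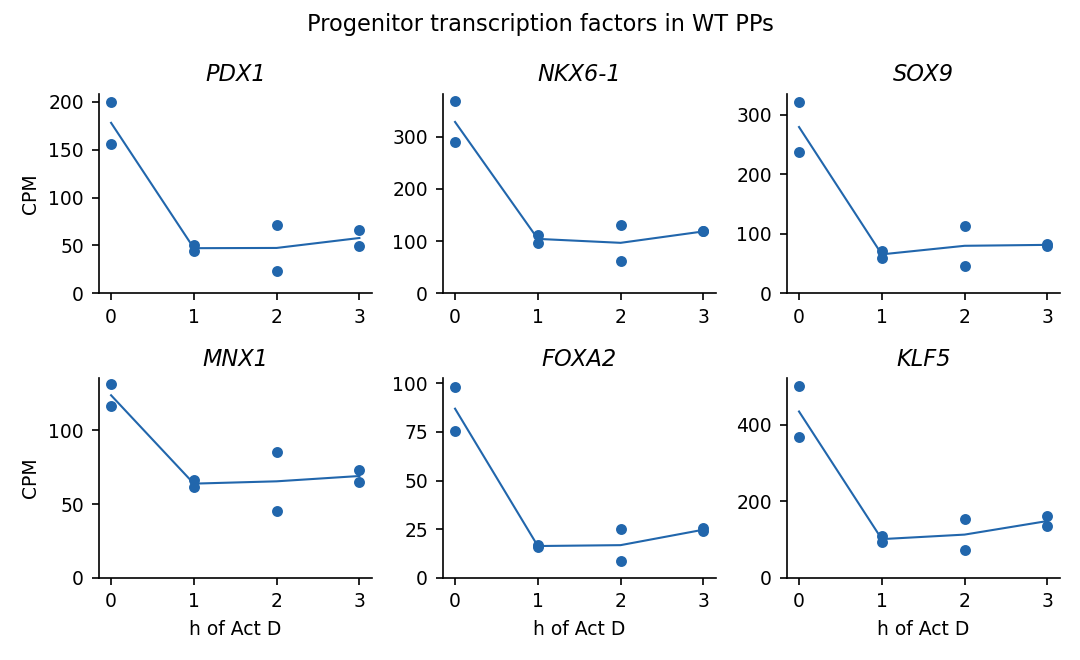
CPM of 6 progenitor transcription factors in WT PPs against hours of Act D, with a point for each of the 2 libraries per time and a line through the means. Most of the fall lies in the first hour (*PDX1* from 199.9 and 156 CPM to 43.7 and 50.5 CPM), and the libraries at 2 h lie far apart.

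The zinc finger genes named ZNF and a number, most of which encode sequence-specific DNA-binding repressors, were the largest class that fell. Of 250 tested (476 listed) 159 fell and 0 rose by limma, which is 63.6% against 16.7% of all genes. The 0 held with edgeR and DESeq2, and 2 had an unadjusted *p* under 0.05 with a higher level at 1 h. Their median log2 change was -0.86, and after quantile normalization 117 fell and the median was -0.54. *ZNF574* went from 50.9 and 36.7 CPM to 4.23 and 5.04 CPM (-2.98), *ZNF703*, a corepressor of epithelial cells, from 226 and 163 CPM to 21.8 and 27.6 CPM (-2.92), and *ZNF503* from 15.0 and 8.43 CPM to 0.686 and 0.846 CPM. At the other end *ZNF580* was at 27.5 and 28.1 CPM and then at 30.4 and 34.9 CPM. The class summed to 0.794% and 0.699% of reads at 0 h and to 0.412% and 0.436% at 1 h, a ratio of 0.568.

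Regulators of RNA itself fell in part. Of 15 tested SR proteins and CLK kinases, the splicing factors and the kinases that phosphorylate them, 8 fell (median -0.70). *CLK1* went from 52.3 and 43.3 CPM to 13.4 and 12.7 CPM, *SRSF6* from 236 and 214 CPM to 88.5 and 96.6 CPM, and *SRSF3* from 506 and 471 CPM to 248 and 269 CPM. *SRSF9*, at 109 and 120 CPM and then 118 and 128 CPM, was not called. Of 18 tested genes of the m6A machinery 8 fell (44.4%, beside 16.7% of all genes), and the median was -0.47. Of these 8, 5 were among the 9 writers and their cofactors and 3 among the 7 readers. *RBM15*, which guides the methyltransferase complex to RNA, went from 38.2 and 28.2 CPM to 5.20 and 7.12 CPM. *YTHDF2*, the reader that brings marked mRNAs to decay, went from 152 and 130 CPM to 48.4 and 50.3 CPM, and *YTHDF1* and *YTHDF3* fell by 1.23 and 0.77. The catalytic subunit *METTL3* (52.9 and 48.8 CPM, then 51.8 and 55.4 CPM), the eraser *FTO* (34.4 and 29.6 CPM, then 29.6 and 30.2 CPM) and all 3 IGF2BP readers were not called. A gene on the opposite strand shares 24.7% of the exon bases of *YTHDF2*.

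Of 40 tested genes of the cytoplasmic decay machinery 8 fell (20.0%, median -0.27), close to the 16.7% of all genes. *TOB2* and *TOB1*, adaptors that join the deadenylase to other proteins, fell (*TOB2* from 116 and 90.5 CPM to 31.9 and 35.3 CPM), as did *CNOT4*, a ubiquitin ligase of the CCR4-NOT complex (-1.54), and the helicase *DDX6*, from 136 and 116 CPM to 57.3 and 62.6 CPM. *TOB1* shares 11.1% of its exon bases with *TOB1-AS1* on the opposite strand.

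In the stress pathways part of the genes fell. Of 16 tested p53 targets 8 fell (median -0.61), with the phosphatase *PPM1D* from 35.3 and 24.1 CPM to 5.75 and 7.06 CPM, the cell cycle inhibitor *CDKN1A* from 157 and 136 CPM to 61.5 and 67.6 CPM, and *MDM2*, the ubiquitin ligase of p53, from 107 and 89.4 CPM to 43.5 and 46.7 CPM. *BAX*, an effector of apoptosis, was at 142 and 145 CPM and then at 156 and 158 CPM. Of 15 tested genes of the unfolded protein response 6 fell, with *XBP1*, its transcription factor, from 242 and 186 CPM to 66.9 and 76.9 CPM and *ATF4* from 473 and 466 CPM to 284 and 293 CPM. The chaperone *HSP90B1* and the disulfide isomerases *PDIA4* and *PDIA6* had log2 changes of 0.14, 0.20 and 0.19. Of 8 tested heat shock genes *DNAJB1* (149 and 126 CPM, then 44.5 and 46.2 CPM) and *HSPH1* fell (25%, beside 16.7% of all genes), and the other 6 were not called. The median of this list was -0.05 on CPM and 0.08 after median-of-ratios scaling.

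Of 8 tested clock genes 6 fell (median -1.06), with *PER2*, a repressor of the clock, from 22.4 and 21.6 CPM to 5.49 and 6.93 CPM, and *CRY2*, *NR1D2* and *TEF* by 1.38, 1.49 and 1.21. *CRY1* was at 16.9 and 18.1 CPM and then at 15.6 and 16.2 CPM. Of 10 tested cyclins, inhibitors and other switch genes of the cell cycle 6 fell, led by the transcriptional cyclin *CCNL1* (126 and 112 CPM, then 34.2 and 35.5 CPM). Of 18 tested mitosis genes 1 fell, and the median was -0.26. At an unadjusted *p* under 0.05, 13 were lower and 0 higher, beside 4044 and 1136 of 10217 protein-coding genes. The gene that fell was *AURKA*, the spindle kinase, from 85.0 and 66.1 CPM to 36.8 and 40.5 CPM. *TOP2A*, the topoisomerase of dividing cells, was at 454 and 452 CPM and then at 459 and 460.4 CPM. The sterol genes held 7 that fell of 19 tested (36.8%, beside 16.7% of all genes). Among them were *INSIG1*, the sterol sensor (124 and 104 CPM, then 45.7 and 49.7 CPM, log2 change -1.24), and *SQLE*, an epoxidase of cholesterol synthesis (-0.66, near the fold limit). After median-of-ratios scaling 2 of the list fell and after quantile normalization 3.

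Several classes of abundant mRNAs kept or gained share. Of 71 tested ribosomal protein genes 0 fell by limma, edgeR or DESeq2, and 1 rose by limma, 4 by edgeR and 3 by DESeq2. At an unadjusted *p* under 0.05 none was lower and 70 were higher, beside 4044 and 1136 of 10217 protein-coding genes. The ribosomal protein genes had a median log2 change of 0.21. In 67 of the 71 both 1 h libraries lay above both 0 h libraries, beside 22.6% of all tested genes. After quantile normalization the median was 0.06 and 60 of the 71 changes were above 0. The class summed to 9.80% and 10.8% of reads at 0 h and to 11.9% and 11.9% at 1 h. *RPS29*, the 1 that rose by limma, was at 252 and 357 CPM and then at 401 and 562 CPM, its replicates lay apart at both times, and it was not called by DESeq2 or with robust variances.

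Of 15 tested translation factors 0 were called by limma, edgeR or DESeq2 (median 0.16). In all 15 both 1 h libraries lay above both 0 h libraries, beside 22.6% of all tested genes. Of these factors 12 had an unadjusted *p* under 0.05 with a higher level and 0 with a lower one. *EEF1A1*, the elongation factor, was at 22551 and 23394 CPM and then at 26328 and 25113 CPM. After quantile normalization their median was 0.02, with 9 of 15 above 0. Of 50 tested nuclear genes of the respiratory chain 1 fell, *NDUFA11* (-0.70, not called after quantile normalization), and the median was 0.13. Of 17 tested glycolysis genes 0 were called by limma, edgeR or DESeq2, with 2 lower and 8 higher at an unadjusted *p* under 0.05, and the median was 0.12. The 15 cytoskeleton genes and 19 proteasome genes tested also had 0 calls by these tools, with medians of 0.04 and -0.03. At an unadjusted *p* under 0.05, 2 cytoskeleton genes were lower and 4 higher, and 5 proteasome genes were lower and 1 higher. Over the 10217 tested protein-coding genes, 4044 were lower and 1136 higher at that limit.

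The 13 mRNAs of the mitochondrial genome, of which 12 were tested, summed to 8.03% and 8.11% of reads at 0 h and to 9.47% and 9.36% at 1 h. None was called by limma, which found 2 lower and 8 higher at an unadjusted *p* under 0.05, while edgeR and DESeq2 called 2 higher each. They differed among themselves: *MT-ND2* was at 3627 and 3329 CPM and then at 2794 and 2824 CPM, and *MT-ND6*, the mRNA encoded on the other strand from the rest, was at 707 and 729 CPM and then at 1113 and 1043 CPM. The median change was 0.23 on CPM and 0.00 after quantile normalization. The small ribosomal RNA of the mitochondrion, *MT-RNR1*, rose from 4317 and 5189.5 CPM to 9803 and 9076 CPM (log2 change 0.99 ± 0.07). All genes of the mitochondrial genome together took 10.9% and 11.3% of reads at 0 h and 14.1% and 13.8% at 1 h.

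Of 16 tested collagens 0 fell and 1 rose by limma, 2 rose by edgeR and DESeq2, and the median was 0.22. *COL1A1*, the fibrillar collagen of mesenchyme, rose from 7.23 and 8.06 CPM to 13.3 and 14.5 CPM, and *COL3A1* was at 22.0 and 24.1 CPM and then at 36.4 and 32.5 CPM. The 6 mesenchyme markers, which include both genes, summed to 40.7 and 43.6 CPM at 0 h and 66.6 and 62.4 CPM at 1 h, and 3 of the 6 were tested. The part of mesenchymal cells in this was not tested. Of 10 tested plasma protein genes, made by hepatic and foregut endoderm, 0 were called by limma and 1 was higher by edgeR and DESeq2, with 2 lower and 5 higher at an unadjusted *p* under 0.05. *APOE* and *AFP* had log2 changes of 0.17 and 0.20. Of 11 tested keratin and junction genes *CLDN4* and *CLDN7* fell (18.2%, near the 16.7% of all genes). *KRT8* was at 1969 and 2001 CPM and then at 1648 and 1669.6 CPM. In 8 of these 11 genes both 1 h libraries lay below both 0 h libraries, beside 51.0% of all tested genes. The class summed to 0.433% and 0.424% of reads at 0 h and to 0.349% and 0.358% at 1 h.

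**Figure D3:**
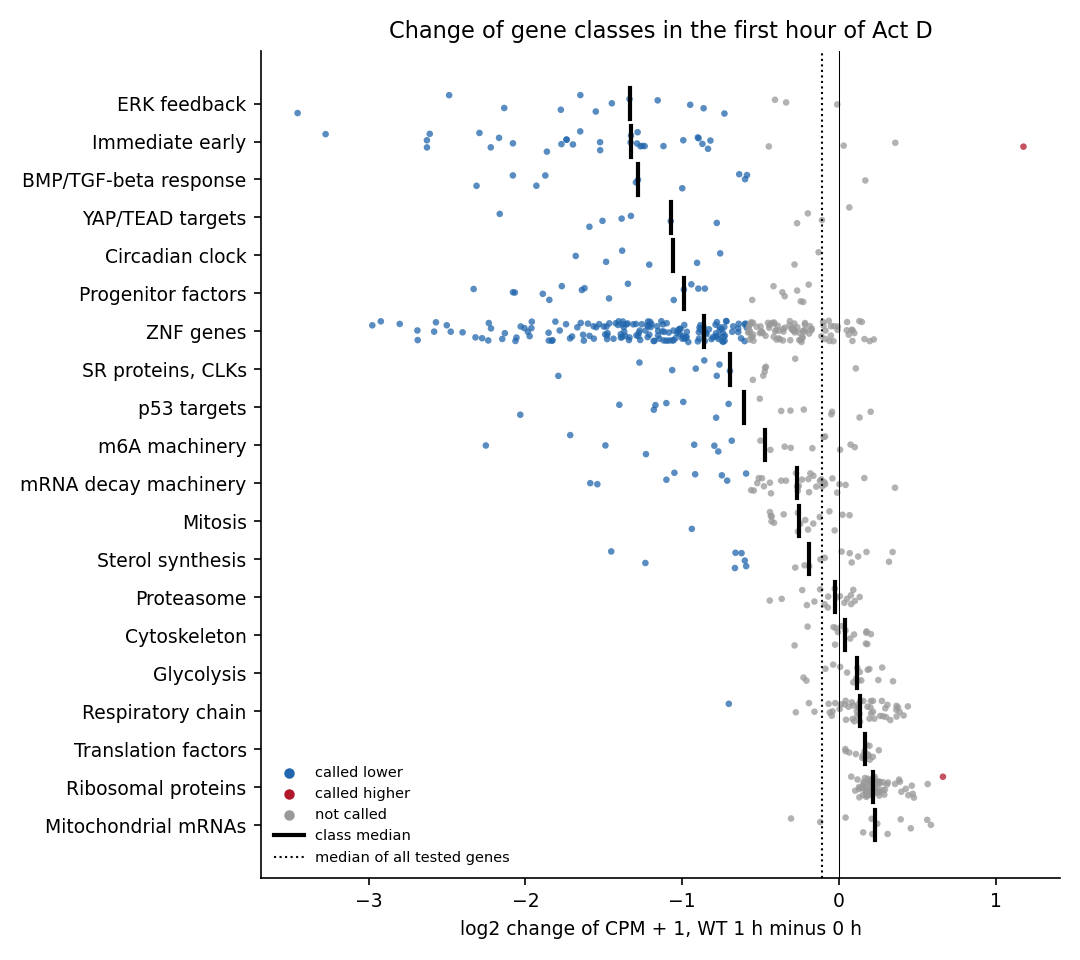
Log2 change of CPM + 1 from 0 h to 1 h in WT PPs for the tested members of 20 gene classes, 1 point a gene, coloured by call, with a black bar at the class median and a dotted line at the median of all tested genes (-0.11). The class medians run from -1.34 for ERK feedback genes to 0.23 for mitochondrial mRNAs.

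Of the 21 genes that rose 12 were protein-coding, of which *GSDMB* and *RPS29* passed 20 CPM at 1 h. *MIR3648-1*, a microRNA locus annotated upstream of a 5.8S ribosomal RNA gene on its strand (chr21:8208473-8208652, GRCh38), was at 1.84 and 1.24 CPM and then at 41.9 and 31.1 CPM (log2 change 3.88 ± 0.18). Its copies in other ribosomal DNA units make the placing of these reads uncertain. *GADD45B* rose from 3.76 and 4.71 CPM to 11.2 and 10.4 CPM, and *GSDMB*, a gasdermin, from 11.6 and 12.3 CPM to 20.9 and 21.7 CPM. *MIR3648-1*, *GADD45B*, *ASMTL* and ENSG00000274276 were the genes that passed 2-fold, the last 2 each with libraries that lay far apart. *ASMTL* was at 8.30 and 1.36 CPM and then 15.98 and 9.30 CPM. ENSG00000274276, which GENCODE lists as an artifactual duplication, was at 2.24 and 2.29 CPM and then 2.60 and 20.2 CPM. The risers also held 5 processed pseudogenes of abundant mRNAs (*RPL15P3*, *RPS27P3*, *RPL39P3*, *RPS3AP26* and *TMSB4XP8*), which can share reads with their parent genes.

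Of 204 tested lncRNAs 28 fell (13.7%, beside 16.7% of all genes) and 0 rose by limma (beside 0.197%), with 3 higher by edgeR and 2 by DESeq2. The lncRNA median of -0.11 was that of all genes. At an unadjusted *p* under 0.05, 60 were lower and 14 higher, beside 4044 and 1136 of 10217 protein-coding genes. *MIR17HG*, the precursor of the miR-17-92 cluster, went from 12.7 and 10.2 CPM to 0.972 and 0.683 CPM, and 20.5% of its exon bases are shared with a gene on the opposite strand. *SNHG15*, a host of a small nucleolar RNA, went from 38.9 and 34.4 CPM to 12.4 and 9.66 CPM, and ENSG00000268205 from 29.7 and 24.4 CPM to 6.63 and 6.25 CPM. Of the 16 tested small nucleolar RNA host genes 3 fell (*SNHG15*, *SNHG17* and *SNHG12*), near the 16.7% of all genes, and *SNHG1* was at 195 and 190 CPM and then 220 and 213 CPM. *NORAD*, a decoy for Pumilio proteins, fell from 354 and 314 CPM to 202 and 213 CPM, while *NEAT1* (38.2 and 38.1 CPM, then 47.5 and 53.8 CPM) and *MALAT1* (52.8 and 58.0 CPM, then 42.4 and 74.95 CPM) were not called.

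The mRNAs that fell had fewer exons and longer 3′ UTRs than the rest. Over the 10185 tested protein-coding genes with a 3′ UTR of at least 20 bases, 54.3% of the 151 genes with 1 exon fell, 37.6% of those with 2 to 3 exons, 13.8% of those with 7 to 12 and 9.04% of those with 21 or more. The share was 8.40% for 3′ UTRs under 500 bases and 24.4% for those of 4000 bases or more. With no TATTTAT motif 13.4% of genes fell, with 1 copy 20.0%, with 2 copies 25.7% and with 3 or more 27.96%. Other features of the transcript moved with the share too: 27.0% of genes with the Pumilio motif TGTAAATA in the 3′ UTR fell against 15.1% of those without it. The share was 3.11% for transcripts under 1000 bases and 24.98% for those of 8000 bases or more, and 20.7% at a GC content under 40% against 10.97% at 60% or more. The genes that fell had a median of 6 exons and a 3′ UTR of 2073 bases, and 50.9% held the motif, against 10 exons, 1452 bases and 37.7% in all tested. Of the immediate early genes 64.7% held it, of the ZNF genes 39.4% and of the ribosomal protein genes 9.86%. The immediate early list was also drawn up for AU-rich element factors, so its share may in part be set by the choice of members.

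These features are tied to each other, so the shares were also taken within bins. Among genes with a 3′ UTR from 2000 to under 4000 bases, 52.7% of those with 1 to 3 exons fell and 12.6% of those with 13 or more. In the bin of 4000 bases or more 26.1% of genes with the motif fell and 18.4% of those without it, and in the bin under 500 bases 13.1% and 7.94%. Without the ZNF genes, 54.0% of 1-exon genes and 8.93% of those with 21 or more exons fell. These are shares of genes and are descriptive, since genes are not replicates.

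**Figure D4:**
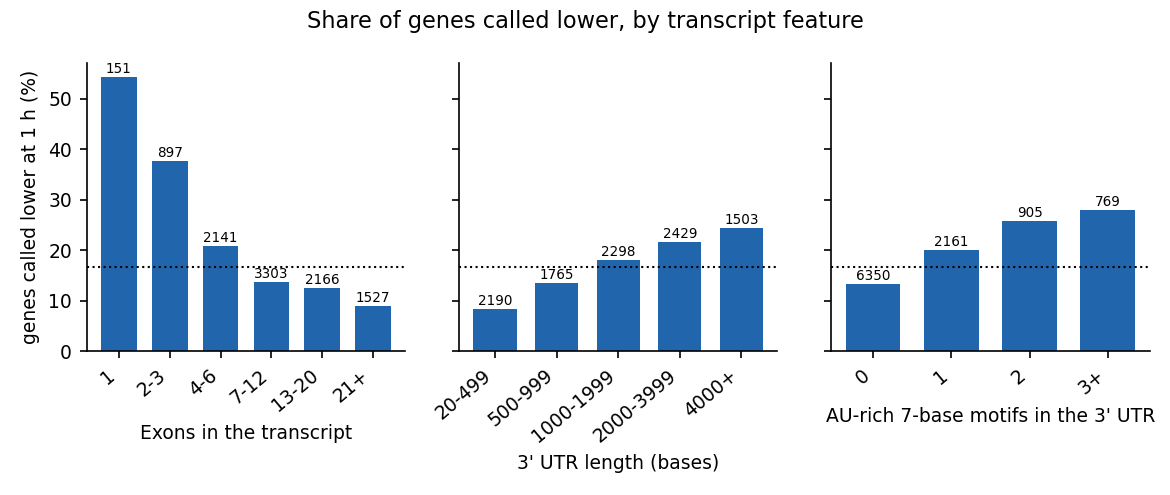
Share of tested protein-coding genes (%) that fell at 1 h by number of exons, 3′ UTR length in bases and copies of the 7-base AU-rich motif in the 3′ UTR, with the number of genes over each bar and a dotted line at the 16.7% of all tested genes. The share goes from 54.3% at 1 exon to 9.04% at 21 or more, and from 13.4% without the motif to 27.96% with 3 or more copies.

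At 3 h, 1730 of the 1773 genes that fell in the first hour (97.6%) had both libraries below both 0 h libraries, against 44.2% of all tested genes. Their median level was 50.2% of 0 h at 1 h and 57.8% at 3 h, and in 992 of them (56.0%) both 3 h libraries lay above both 1 h libraries, against 25.5% of all tested genes. These counts reuse the 0 h and 1 h libraries by which the genes were called and are descriptive. *PDX1* was at 49.1 and 66.4 CPM at 3 h and *KLF5* at 136 and 161 CPM. *FOXA2* was at 25.6 and 23.9 CPM, above both of its 1 h libraries. The 2 h libraries were the least alike (median log2 difference 0.21), with *PDX1* at 23.6 and 71.1 CPM.

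Whether the first hour differed between genotypes was tested as the difference of the 2 changes over 8 libraries. The first-hour fall was larger in WT for 45 genes (0.423% of those tested) and larger in A5-KO for 1 gene, *DHFRP1* (0.00939%). With the replicate number as a block in the fit these counts were 72 and 7. All 45 had a WT change below 0, and in 41 the A5-KO change was above 0. Of the 45 genes 17 were among those that fell in WT, beside 16.7% of all tested genes. Over the 46 called genes the median change was -0.48 in WT and 0.51 in A5-KO, against -0.11 and -0.15 over all tested genes. These counts and medians reuse the libraries by which the genes were called and are descriptive. The class medians of both genotypes lay close for the progenitor factors (-0.99 in WT and -1.07 in A5-KO), the ZNF genes (-0.86 and -0.92) and the BMP and TGF-beta genes (-1.28 and -1.25). They lay further apart for the immediate early genes (-1.33 and -1.06), p53 targets (-0.61 and -0.33), NF-kB genes (-0.38 and -0.07), the m6A machinery (-0.47 and -0.73) and mitochondrial mRNAs (0.23 and -0.10), and these differences of medians were not tested. None of the 4 genes *PDX1*, *NKX6-1*, *SOX9* and *MNX1* was called in this test.

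Keratin and junction genes stood out in the test by count, with 6 of 11 called (*KRT8*, *KRT18*, *KRT19*, *CDH1*, *CLDN4* and *CLDN7*). All 6 had a larger fall in WT, beside 0.423% of all tested genes. The class medians were -0.26 in WT and 0.31 in A5-KO. The list was chosen with earlier results of these data known, and the counts of this test rest on single libraries. The 3 h levels follow for the called genes. At 3 h in WT these 6 were, in that order, at 101%, 85.6%, 82.5%, 121%, 94.6% and 118% of their 0 h means. At 1 h in WT they had been, in the same order, at 83.6%, 71.0%, 72.1%, 81.4%, 49.3% and 59.8%. Of the 6 only *CLDN4* and *CLDN7* were among the genes that fell in WT. The cause of the higher levels at 3 h was not tested. *CLDN4*, a claudin of tight junctions, was at 41.8 and 34.8 CPM and then 18.04 and 19.7 CPM in WT, and at 46.3 and 47.7 CPM and then 55.7 and 61.5 CPM in A5-KO (difference -1.29 ± 0.16, limma adjusted *p* = 0.0019). *PRSS8*, a membrane serine protease of epithelia, was at 37.3 and 36.1 CPM and then 21.7 and 23.1 CPM in WT, and at 34.1 and 36.5 CPM and then 54.4 and 56.0 CPM in A5-KO (-1.32 ± 0.14). In both genes the 1 h libraries of WT lay below and those of A5-KO above all libraries at 0 h. *JUND* was the immediate early gene called here, at 294 and 251 CPM and then 103 and 120.0 CPM in WT, and at 204 and 241 CPM and then 167 and 187 CPM in A5-KO.

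**Figure D5:**
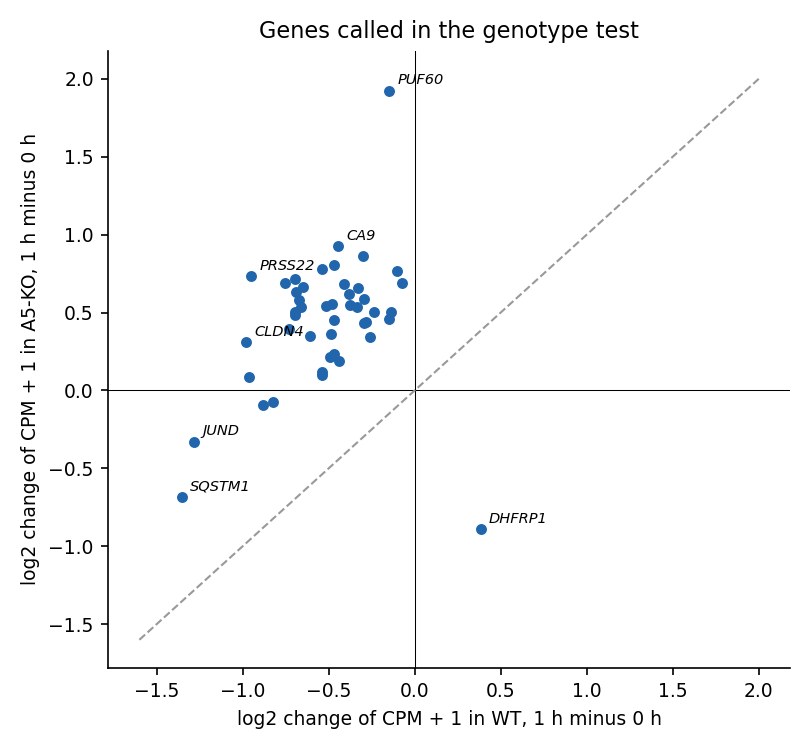
Log2 change of CPM + 1 in A5-KO against that in WT for the 46 genes called in the test of the genotype difference, 1 point a gene, with a dashed line where both are equal. Of these genes 45 lie left of 0 in WT, 41 of them above 0 in A5-KO, and *DHFRP1* lies alone below the line. The genes were called by the difference between the changes shown.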

How the data were processed

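RNA-seq of WT PPs at 0 h and 1 h of Act D (2 libraries each) and, for the genotype test, of A5-KO PPs at the same times was used. Paired-end reads were trimmed (fastp) and aligned by the authors with HISAT2 (2.1.0 in the submitters' processing notes) to GRCh38, and the authors deposited CPM for each gene, without the ERCC spike-ins. The read counter, annotation release and use of strand are not given in the sources used here. Of 60623 identifiers 60369 matched a GENCODE v44 symbol, from which exons, 3′ UTRs and overlaps were taken. All CPM values of genes with low read numbers (100%) were whole multiples of 1 read within 0.01 read, which gave back the read counts. Higher values were divided by the same unit and rounded, and were not checked in this way.

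Genes whose mean over the 4 WT libraries reached 5 CPM were tested with limma (3.58.1, R 4.3.3, eBayes with trend) on log2(CPM + 1). Fold changes are on that scale, which understates the change of low genes. Calls needed a Benjamini-Hochberg adjusted *p* under 0.05 and over 1.5-fold. As alternatives, edgeR (4.0.16) and DESeq2 (1.42.0) were run on the recovered counts, with other pseudocounts, filters, scalings, fits and each library left out. The members and the gene lists were chosen with earlier results of these data known. Named genes are the 10 largest falls and rises of protein-coding genes of at least 20 CPM, up to 5 lncRNAs each way, the 4 factors *PDX1*, *NKX6-1*, *SOX9* and *MNX1*, up to 4 called members and the highest member of each list, and the 5 largest genotype differences each way. Any other gene was named after its values were seen, and 4 genes are not reported here. Lists whose results are not given in the text are metallothioneins (0 of 7 tested), HOX genes (1 of 15), protocadherins (3 of 13), histone variants (9 tested) and arrestin domain genes (4 of 5), with 0 calls by limma, edgeR and DESeq2. At an unadjusted *p* under 0.05, 3 arrestin genes and 2 histone genes were lower and 1 protocadherin was higher. Neural markers summed to between 1.35 and 1.95 CPM per library.

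On simulated data for WT 1 h against 0 h (10645 genes), 50 of 50 changes of 2 on the log2 scale in each direction were called, 46 of 50 falls and 49 of 50 rises of 1, and 1 of 10445 unchanged genes. For the genotype test, 50 of 50 changes of 2, 39 of 50 falls and 45 of 50 rises of 1, and 8 unchanged genes were called. The simulation changed equal numbers of genes up and down and drew each gene independently. The real libraries held far more falls than rises and a shift between replicates shared by many genes. The simulated counts of false calls therefore do not measure the rate of false calls in these data.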

Additional observations from a re-analysis of the deposited data

Results flagged for a closer look

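In 4 genes of at least 20 CPM, among those with the largest sizes, the first-hour change differed between the genotypes by a test of the difference itself. *CA9*, a carbonic anhydrase induced by low oxygen, was at 23.0 and 25.7 CPM and then 19.6 and 15.7 CPM in WT, and at 13.6 and 14.9 CPM and then 25.2 and 31.0 CPM in A5-KO, a difference, WT minus A5-KO, of -1.37 on the log2 scale. *ARHGEF39* on the opposite strand, at 26.4 CPM, shares 35.7% of the exon bases of *CA9*. *PRSS8* differed by -1.32 and *CLDN4* by -1.29. *CEACAM5*, an adhesion protein of epithelia, was at 29.0 and 30.4 CPM and then 18.4 and 18.8 CPM in WT, and at 37.9 and 32.2 CPM and then 58.2 and 54.0 CPM in A5-KO, a difference of -1.31. In all 4 both 1 h libraries lay below both 0 h libraries in WT and above them in A5-KO. At 3 h in WT the means were at 80.8% (*CA9*), 101% (*PRSS8*), 94.6% (*CLDN4*) and 121% (*CEACAM5*) of 0 h. Without a filter on low values *CA9*, *CEACAM5* and *CLDN4* were not called.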

How the results depend on the processing

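Of the 103 results for named genes, 1759 of 1766 values under the alternatives kept their direction and call, 7 lost the call and 0 reversed. The number of genes that fell in WT was 1014 after quantile normalization (all 1014 among the 1773) and 3721 without a fold limit, and 1517 to 2034 when 1 library was left out. The 21 that rose became 32 and 7 with pseudocounts of 0.1 and 5, 54 with a mean of at least 1 CPM, 66 with median-of-ratios scaling, 371 with quantile normalization, 40 scaled to genes outside the mitochondrial genome, 94 with edgeR, 85 with DESeq2, 13 with all 16 libraries in 1 fit, 889 without a fold limit, and 23 to 47 with 1 library left out (47 without replicate 2 at 0 h, 46 without replicate 1 at 1 h).

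The 45 genes with a larger fall in WT became 2 without a filter, 102 with DESeq2, 29 in the fit of all 16 libraries and 187 at an unadjusted *p*. The 1 with a larger fall in A5-KO became 3 with a mean of at least 1 CPM, 0 without a filter, 3 with quantile normalization, 7 with DESeq2, 0 with all 16 libraries and 64 at an unadjusted *p*. With 1 library left out the counts ran from 15 to 90 and from 0 to 88, the last without A5-KO 1 h replicate 1, so the genotype counts rest on single libraries.

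A replicate block gave 1774 falls and 21 rises in WT, and 72 and 7 genes that differed between the genotypes. The study states that the wells of each biological replicate came from 1 batch of cells, but the labels do not tie the replicate numbers to batches, and the numbers were not taken to pair the libraries: deviations of same-numbered libraries correlated by -0.103 in WT and 0.223 in A5-KO. The crossed pairing in WT, chosen after seeing the data, gave 1775 and 22. When 1 library is left out, the lone library of its group is assumed to vary like the others. Depth limits little at 20 CPM, and 2 libraries a group limit all results.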

Other observations

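The genes that fell in the first hour also differed between the replicates of a group. At 0 h in WT, replicate 1 was higher than replicate 2 in 1642 of the 1773 genes (92.6%; median log2 difference 0.219), against 62.5% of all tested genes and a median of 0.046. At 1 h in WT, replicate 1 was the higher in 517 of them (29.2%), against 43.7% of all. In A5-KO, replicate 1 was the higher in 89.2% of them at 0 h, against 60.6% of all, and in 63.5% at 1 h, against 58.0%. *MYC*, *DUSP5* and *SPRY2* are examples at 0 h in WT, with 289 against 184 CPM, 967 against 656 CPM and 387 against 272 CPM. The cause was not tested.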
